A study of Caenorhabditis elegans with 2 samples.

Results

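Sites of the transcription factor ELT-3 that lay in the 5′ windows of at least 2 protein-coding genes at once were examined in embryos of Caenorhabditis elegans. They were chosen by pooled ChIP signal and by position: the first 2000 nuclear regions of the pooled list by signal were taken, and a region was kept when its summit lay between 1000 bp upstream and 500 bp downstream of the 5′ ends of 2 or more genes. Of the 2000 regions, 245 (12.25%) met this rule and are called shared sites. They comprised 219 divergent sites, where the genes point away from each other, 24 same-strand sites, where they point the same way, and 2 sites of genes on opposite strands whose 5′ ends overlap. Another 706 regions lay in the window of 1 gene (single-gene sites) and 1049 in no window. The shared sites touched 501 genes, or 2.51% of all 19973 protein-coding genes, and shared and single-gene sites together touched 5.94% of them.

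The data were ChIP-seq, in which DNA fragments bound to a tagged protein are recovered and sequenced. All material came from the strain OP75, genotype unc-119(ed3) III; wgIs75, which carries an integrated transgene for ELT-3 fused to enhanced green fluorescent protein. Embryos were taken whole, at mixed stages and with both sexes pooled, and gave 2 biological replicates of 1 group, so signal from different tissues and stages was mixed, and no other condition was available for comparison. Both replicates share the mutant unc-119 allele and the transgene, a control named in the labels was not analysed here, and read depth is unknown from the lists. All tests below compare sites with sites, so their p-values measure the spread between sites and not between replicates.

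ELT-3 is a zinc finger protein of the GATA family, known for its expression in the hypodermis, the epidermal layer that secretes the cuticle. GATA factors recognise short sequences with the core GATA, here taken as AGATAA or AGATAG or TGATAA or TGATAG on either strand. In the compact worm genome, a divergent pair of genes can use 1 intergenic stretch as the promoter of both, and same-strand neighbours can be transcribed together as an operon. Because the transcripts of many worm genes are trans-spliced, an annotated 5′ end need not be where transcription begins.

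The windows below, on the plus strand of ce11 (WBcel235), show what summits of shared sites look like with a GATA sequence, which is in capitals. They are members of high signal, they reach 50 bp to each side of the summit, and bases of annotated exons were left out. Both nlp-31 and nlp-34, which encode antimicrobial peptides, share chrV:3979981-3980054, where TGATAA and AGATAG overlap. The site of H10E21.1 and the nuclear hormone receptor gene nhr-80 is chrIII:15391-15491. The site of C52E2.3 and the F-box gene fbxb-96 is chrII:1850962-1851062 and holds 4 matches. The site of idhg-1, for a subunit of isocitrate dehydrogenase, and mlcd-1, for malonyl-CoA decarboxylase, is chrIII:4568652-4568752. The last is a same-strand site of bath-38 and F52H3.11 at chrII:10045790-10045890.
nlp-31/nlp-34: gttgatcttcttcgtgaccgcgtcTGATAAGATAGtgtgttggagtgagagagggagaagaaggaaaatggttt
H10E21.1/nhr-80: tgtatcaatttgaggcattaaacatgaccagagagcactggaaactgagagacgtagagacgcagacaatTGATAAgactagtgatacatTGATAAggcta
C52E2.3/fbxb-96: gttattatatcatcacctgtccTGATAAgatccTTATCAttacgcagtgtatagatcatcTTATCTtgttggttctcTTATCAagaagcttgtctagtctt
idhg-1/mlcd-1: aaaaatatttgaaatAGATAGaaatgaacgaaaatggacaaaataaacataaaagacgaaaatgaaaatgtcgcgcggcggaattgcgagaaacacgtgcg
bath-38/F52H3.11: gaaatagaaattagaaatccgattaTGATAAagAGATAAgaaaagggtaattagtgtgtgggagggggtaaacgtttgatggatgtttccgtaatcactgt

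Most shared sites looked different, and 199 of the 245 windows held no GATA sequence. The windows of 4 such members are shown on the plus strand of ce11. Capitals mark CGCTCC or GCTCCA or GCCGCA on either strand, the 6-base sequences that led the comparison with single-gene sites described further on. The tasp-1 and K01G5.10 site (chrIII:10759194-10759294) holds CGCTCC and GCTCCA overlapping. The site of Y17G9B.5 and the ribosomal protein gene rpl-20 (chrIV:4750014-4750114) holds GCCGCA. The site of F54C9.14 and iff-2, for the translation factor eIF5A (chrII:8561400-8561500), holds CGCTCC. The same-strand site of sec-61.G, for a subunit of the protein translocation channel of the endoplasmic reticulum, and F32D8.13 (chrV:10897344-10897444) holds none of the 3. These 4 were picked after their values were seen. The window of the icd-1 and vps-32.1 site, of higher signal (98.7), is not shown and holds none of the 3. Each of the 3 was in only 11.4% to 14.3% of shared windows, so the display does not show how common they are.
tasp-1/K01G5.10: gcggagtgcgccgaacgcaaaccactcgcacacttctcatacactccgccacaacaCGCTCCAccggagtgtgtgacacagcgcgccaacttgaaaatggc
Y17G9B.5/rpl-20: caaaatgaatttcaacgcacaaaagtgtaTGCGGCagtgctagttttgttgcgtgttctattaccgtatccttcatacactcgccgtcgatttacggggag
iff-2/F54C9.14: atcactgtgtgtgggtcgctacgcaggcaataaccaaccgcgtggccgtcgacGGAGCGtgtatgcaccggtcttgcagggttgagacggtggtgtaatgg
sec-61.G/F32D8.13: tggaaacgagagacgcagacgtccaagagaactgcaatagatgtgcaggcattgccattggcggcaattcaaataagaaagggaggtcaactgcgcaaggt

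Signal is a score given by the authors' peak caller, with no stated scale, and is read here only within a list. Pooled signal chose the members, so it is described without a test. It ran between 27.07 and 120.4 over the shared sites, with a median of 36.6, against a median of 34.2 over the single-gene sites. The last members inside the limit were the sites of B0432.10 and misc-1 at 27.10 and of srlf-7 and C42D4.13 at 27.07. The next sites of the same kind outside it were those of abf-5 and abf-6 at 26.81 and of C02E7.7 and C02E7.6 at 26.75. At the edge of the 5′ window, the second gene of the T10E9.2 and T10E9.8 site began 992 bp from the summit, and that of the tag-281 and tag-280 region, left out, 1006 bp from it. A further 643 regions of lower signal met the positional rule, so the 245 are the upper end of a longer list.

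Most shared sites had a summit in both replicate lists. A summit within 100 bp was found in both replicate lists for 210 of the 245 shared sites (85.7%), where 82.2% of all 2000 regions had one. The replicate 1 list held 232 of them and the replicate 2 list 223, and none was missing from both. Their median signal was 22.1 in the replicate 1 list, with a range of 8.50 to 68.9. In the replicate 2 list it was 16.5, with a range of 4.68 to 49.3. Both lists were called at a relaxed threshold, and the members were chosen on signal pooled from both replicates. Presence in both lists is therefore weak evidence of agreement. Only 96 of the 245 (39.2%) ranked among the first 2000 in both replicate lists, where 38.25% of all 2000 regions did. Reproducible peaks, those that passed the authors' threshold on the irreproducible discovery rate, made up 81 of the 245 (33.1%). Of the 2000 regions, 30.7% were such peaks. Among the members, the reproducible peaks were exactly the 81 of highest pooled signal. The label is thus a cut on the signal that chose the members, and no separate evidence of agreement between replicates. The pqn-71 and rocf-1 site carried it without a summit in the replicate 2 list. The order of the members was only loosely shared between replicates: Spearman's rho of their signals was 0.26 over 210 sites, 0.23 over the 189 divergent and 0.58 over the 19 same-strand sites. It was 0.28 over 573 single-gene sites. These points share 2 libraries and were selected on the pooled signal of both, which can narrow their range.

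**Figure D1:**
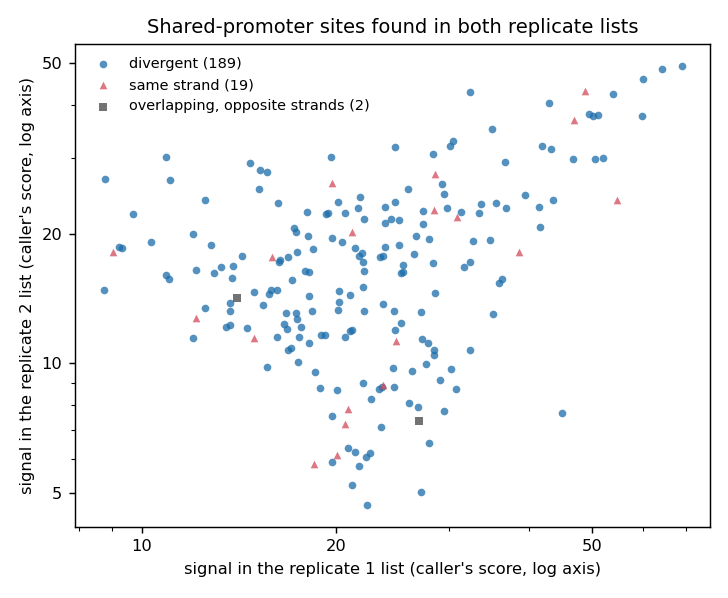
Signal of the 210 shared sites found in both replicate lists, replicate 1 on the x axis and replicate 2 on the y axis, both as the caller's score on log axes. Divergent, same-strand and overlapping sites are marked apart, and the members of highest signal stand at the upper right, at 68.9 and 49.3 for the his-67 and his-68 site.

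The divergent site of highest signal lay between his-68 and his-67, core histone genes, with the Argonaute gene alg-5 also in range (chromosome I, 9988927 to 9989045). Its pooled signal was 120.4, with 68.9 in replicate 1 and 49.3 in replicate 2, and the summit was 133 bp upstream of his-68 and 236 bp upstream of his-67. Histone genes exist in near-identical copies, so reads at such sites may be shared between copies and these values are uncertain. The nlp-31 and nlp-34 site followed at 110.2, with 64.2 in replicate 1 and 48.5 in replicate 2. Its summit stood 24 bp upstream of nlp-31 and 897 bp upstream of nlp-34, and these peptide genes also have close relatives next to them. The H10E21.1 and nhr-80 site had 103.8, with 60.04 and 45.9 in replicates 1 and 2, and its summit was 331 bp and 572 bp upstream of those genes. nhr-80 is known as a regulator of fatty acid desaturation. These 3 sites and the C52E2.3 and fbxb-96 site (82.2 pooled, 52.1 and 30.02 in replicates 1 and 2) were the members with a GATA sequence among the 10 divergent sites of highest signal.

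The other 6 of these 10 held none, and several belong to protein synthesis and handling. The rpl-1 and Y71F9AL.9 site, at a gene of the large ribosomal subunit, had a signal of 100.5, with 59.9 in replicate 1 and 37.7 in replicate 2. The site between icd-1, a subunit of the nascent polypeptide-associated complex, and vps-32.1, a subunit of the ESCRT-III membrane-sorting complex, had 98.7, with 54.0 in replicate 1 and 42.3 in replicate 2. The tasp-1 and K01G5.10 site had 89.8, with 50.2 and 37.7 in replicates 1 and 2. The rpl-20 site had 88.9, with 49.6 and 38.1. The iff-2 site had 87.0, with 51.1 and 37.9. The spe-48 and Y51F10.11 site had 84.1, with 42.8 and 40.5, and its summit was only 19 bp upstream of spe-48 and 161 bp upstream of Y51F10.11. All 10 were in both replicate lists and, as follows from their pooled signal, all were reproducible peaks.

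Divergent summits mostly lay in the stretch that both genes have upstream. Of 219 summits, 197 (90.0%) were between the 2 annotated 5′ ends, and 22 lay past one of them, downstream of its 5′ end. The 5′ ends were a median of 551 bp apart, with quartiles of 355.5 and 842 bp and a maximum of 1899 bp. The nearer 5′ end was a median of 146 bp downstream of the summit and the farther a median of 414 bp, and in 130 sites both were within 500 bp. For the 197 summits between the ends, the distance to the nearer one was a median of 0.305 of the gap, on a scale where 0 is a 5′ end and 0.5 is midway. The windows of the rule bound these distances, so they describe the members and test nothing.

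**Figure D2:**
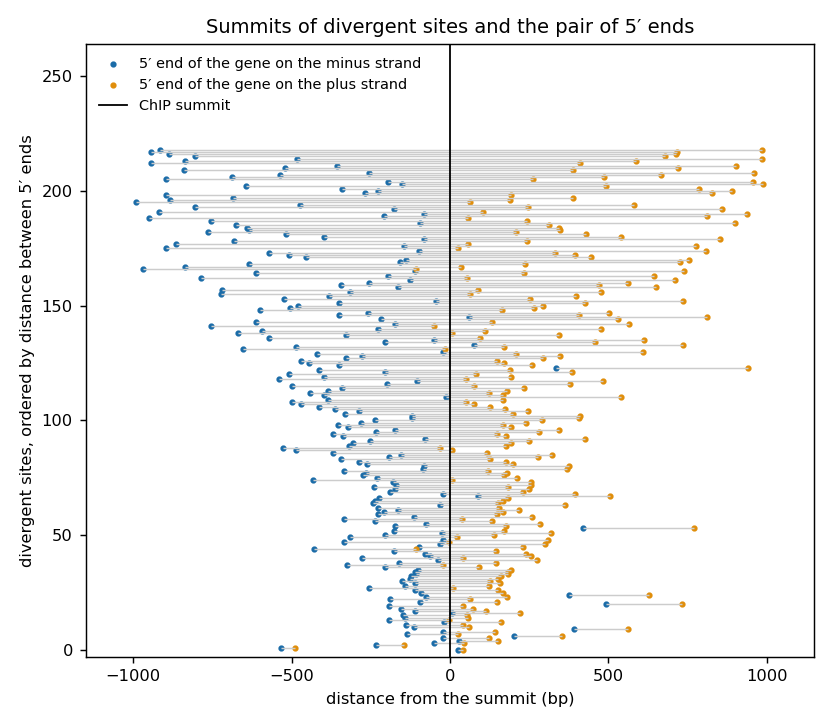
Position of the 5′ ends of each of the 219 divergent sites relative to the ChIP summit at 0, in bp. Each row is a site, ordered by the distance between the ends, with the gene on the minus strand in blue and the gene on the plus strand in orange; for 197 sites the summit lies between the ends.

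Of 2560 divergent neighbour pairs in the genome with 5′ ends up to 2000 bp apart, 217 (8.48%) held a shared site. By distance, the share was 5.90% (exact 95% interval 3.73 to 8.79%) for 373 pairs up to 250 bp apart, 12.9% (10.2 to 16.0%) for 544 pairs of 250 to 500 bp and 11.5% (9.38 to 13.8%) for 828 pairs of 500 to 1000 bp. For 815 pairs of 1000 to 2000 bp it was 3.68% (2.497 to 5.21%), where the windows of the rule reach both genes over only a part of the gap. These intervals cover counting error only.

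The 24 same-strand sites were of 2 kinds. In 12 the annotated genes overlap, and in 12 they follow each other without overlap. The summit was a median of 156.5 bp upstream of the nearer 5′ end and 682 bp upstream of the farther. The highest, at 91.1 (48.7 in replicate 1, 43.1 in replicate 2), lay 53 bp upstream of egl-30, which encodes the alpha subunit of a Gq protein, and 172 bp upstream of C53H9.4. The sec-61.G site had 84.8, with 47.0 and 36.8 in replicates 1 and 2. The tub-2 and Y71G12A.5 site had 79.97, with 54.7 and 24.0.

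The only collagen gene among the same-strand sites was dpy-10, whose mutants have a short, wide body. Its site had a pooled signal of 57.6, with 38.5 in replicate 1 and 18.2 in replicate 2. The summit was 233 bp upstream of dpy-10 and 471 bp downstream of the 5′ end of T14B4.19, and it held no GATA sequence. Ribosomal protein genes appeared here as well. The rps-28 and Y41D4B.4 site had 56.6, with 28.5 and 27.5 in replicates 1 and 2, and the rpl-23 and swp-1 site had 44.3, with 21.2 and 20.3. The F13G3.10 and mif-3 site, at a gene of the macrophage migration inhibitory factor family, had 50.2, with 30.9 and 22.0.

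GATA sequences were present in 5 of the 24 same-strand windows. They were the bath-38 site (51.3 pooled, 28.4 and 22.7 in replicates 1 and 2), rpb-11, for a subunit of RNA polymerase II (29.1), atf-4, a transcription factor of the integrated stress response (28.8), crp-1 (28.4) and baf-1, for the chromatin protein BAF (27.8). The rpb-11 site had no summit in the replicate 1 list. Both overlapping opposite-strand sites lacked a GATA sequence. They were those of Y17G7B.20 and ash-2, a subunit of histone H3 lysine 4 methyltransferase complexes (34.4), and of W03A5.2 and Y32H12A.8 (30.3).

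A GATA sequence was less frequent at shared sites than at single-gene sites. It lay within 50 bp of the summit in 46 of 245 shared sites, or 18.8% (exact 95% interval 14.1 to 24.2%), against 217 of 706 single-gene sites, or 30.7% (27.3 to 34.3%). Over all 2000 regions the share was 31.9%. The difference of -11.96 percentage points passed the test (Fisher's exact, two-sided, odds ratio 0.521, p = 2.58e-04, adjusted p = 0.00129 over 5 comparisons). TGATAA was in 21 shared and 119 single-gene windows. Of windows of the same length just upstream of all 19973 protein-coding genes, 24.9% held a GATA sequence, at a median of 33.7% G and C. A rearranged control, AGTAAA or AGTAAG or TGTAAA or TGTAAG, was in 9.80% of shared and 13.6% of single-gene windows, a difference that did not pass (Fisher's exact test, adjusted p = 0.29). The control was in 22.1% of the windows upstream of all genes. Neither GATA nor the control was tested against those windows. Shared windows were richer in G and C, at a median of 45.5% against 42.6%. Among windows of 40 to 50% G and C alone, a limit chosen after the data had been seen, the GATA difference was -13.4 points and passed (Fisher's exact test, adjusted p = 0.029). Windows were not matched for G and C inside that band, and base composition as a cause was not tested.

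The call was kept in 1 of the 2 replicate lists. With the 2000 regions taken from the replicate 2 list alone, GATA was at 18.1% of 259 shared against 32.9% of 681 single-gene sites (Fisher's exact test, adjusted p = 2.91e-05). With those of the replicate 1 list alone, it was at 21.4% of 196 against 26.8% of 682 (Fisher's exact test, adjusted p = 0.69). Within 25 bp of the summit the shares were 11.8% and 18.6% (Fisher's exact test, adjusted p = 0.085).

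Summits of shared sites did not hold the GATA sequence more often than the DNA beside them, which was poorer in G and C. In flank windows of the same 101 bp, with their centre 500 bp away, it was in 51 of 245, or 20.8% (exact 95% interval 15.9 to 26.4%), and 39 sites had it at the summit only against 44 at the flank only (exact McNemar test, two-sided, p = 0.66). At single-gene sites the shares were 30.7% at the summit and 19.5% in the flank, with 170 sites at the summit only and 91 at the flank only (exact McNemar test, two-sided, p = 1.15e-06). These splits differed between the classes: the summit-only part was 47.0% of 83 shared and 65.1% of 261 single-gene sites (two-sided Fisher's exact test, p = 0.00438). This comparison was added after the data had been seen. It gave p = 7.65e-04 without replicate 1 and 0.47 without replicate 2 (Fisher's exact test).

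**Figure D3:**
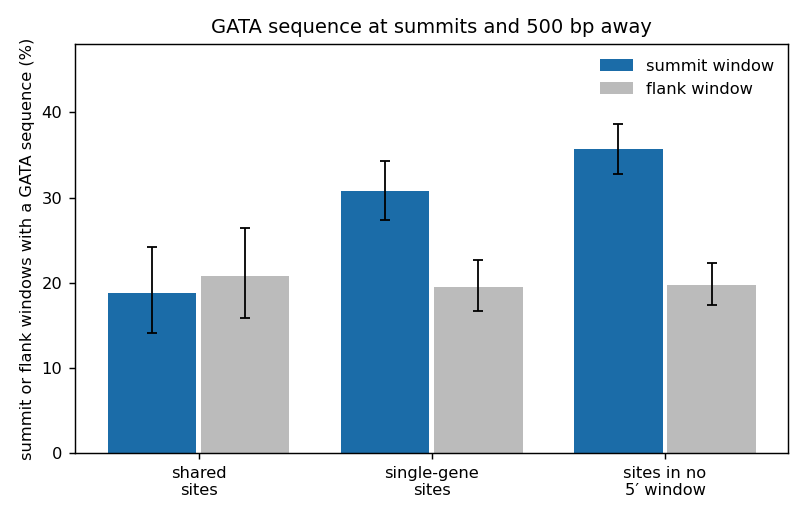
Percentage of windows of 101 bp that hold a GATA sequence, at the summit (blue) and 500 bp away (grey), for 245 shared sites, 706 single-gene sites and 1049 sites in no 5′ window. Bars start at 0 and error bars are exact 95% intervals; shared sites have 18.8% at the summit and 20.8% in the flank, and the other classes have more at the summit than in the flank.

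The flanks of shared sites differ in kind from those of single-gene sites. The flank centre fell in a coding exon at 46.5% of shared and 23.1% of single-gene sites, and the median G and C content was 37.6% and 34.7% there. With only sites whose flank centre was outside coding exons, also added after the data had been seen, GATA was at 19.8% of 131 shared summits and 23.7% of their flanks (exact McNemar test, p = 0.58). At 543 such single-gene sites it was at 32.6% and 19.2% (exact McNemar test, p = 2.85e-07). The rearranged control was less frequent at summits than in flanks in both classes. It was at 9.80% against 20.8% at shared sites (exact McNemar test, p = 7.30e-04). At single-gene sites it was at 13.6% against 19.1% (exact McNemar test, p = 0.0046). Shared summits were also richer in G and C than their flanks, at a median of 45.5% against 37.6%. Single-gene summits were likewise, at 42.6% against 34.7%. At shared sites the control thus fell from flank to summit, while the GATA share stayed nearly level. GATA relative to the control was not tested, so the level GATA shares do not show that shared summits lack GATA enrichment.

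Within the members, GATA was at 41 of 219 divergent sites (18.7%) and 5 of 24 same-strand sites (20.8%). The interval of the same-strand share, 7.13 to 42.2%, is too wide to compare the classes (Fisher's exact test, adjusted p = 0.98). Members in the reproducible list, those of highest pooled signal, held it in 13 of 81 (16.0%). The other members held it in 33 of 164 (20.1%). The median pooled signal was 33.5 with a GATA sequence and 37.2 without. Where it was present, 16 of the 46 windows held at least 2 matches. A match was a median of 22.5 bp from the summit, as it was at single-gene sites. The window reaches only 50 bp to each side, and whether matches gathered at the summit was not tested.

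Other short sequences did differ. Of 2080 6-base sequences, with reverse complements merged, 20 were more and 4 less frequent at shared than at single-gene sites, together 1.15% (Fisher's exact test, adjusted p under 0.05). CGCTCC led, in 14.3% of shared and 4.11% of single-gene windows (Fisher's exact test, adjusted p = 7.52e-04) and in 4.35% of all 2000. GCTCCA, which can overlap it, was at 11.4% and 2.83%, and GCCGCA at 11.4% and 2.97%. AAAGAG was at 7.35% of shared and 17.99% of single-gene windows (Fisher's exact test, adjusted p = 0.0083), followed by AAAGAT at 4.49% and 13.2% and GAAAGA at 6.94% and 16.3%. Within windows of 40 to 50% G and C, 114 shared and 265 single-gene, no 6-base sequence passed after adjustment, and 87 more and 52 less frequent ones had an unadjusted p under 0.05 (Fisher's exact test). There, CGCTCC was at 14.9% and 4.15% (Fisher's exact test, unadjusted p = 4.96e-04) and GCTCCA at 13.2% and 2.64%. The replicate 2 list alone gave 2 more frequent and 2 less frequent sequences, and the replicate 1 list alone 5 and 0.

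Against their own flanks, 90 sequences were more and 35 less frequent at shared summits, together 6.01% of the 2080 (exact McNemar test, adjusted p under 0.05). GCGCAC was in 16.7% of summit and 0.408% of flank windows (exact McNemar test, adjusted p = 2.13e-08), CGCTCC in 14.3% and 0.408%, and ACGCGC in 12.7% and 0.408%. GCGCAC and ACGCGC did not pass against single-gene sites, where they were at 8.50% and 9.07% (Fisher's exact test, adjusted p = 0.055 and 0.57). The leading sequence of the flanks was CTGAAA, in 6.12% of summit and 29.8% of flank windows (exact McNemar test, adjusted p = 2.13e-08). Its reverse complement, TTTCAG, is the usual end of worm introns. TCTGAA was at 3.27% and 17.96%, and TCCAGA at 0 and 9.39%. The median G and C content was 45.5% at these summits and 37.6% in the flanks, and 46.5% of flank centres fell in coding exons. No comparison of 6-base sequences with flanks was limited by G and C or to flanks outside coding exons. Base composition and coding sequence were therefore not told apart from other differences.

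Among 19 gene groups, cytoplasmic ribosomal proteins and translation factors had the highest shares at shared sites. Of 82 genes of cytoplasmic ribosomal proteins, 31 (37.8%) were at a shared site and 10 (12.2%) at a single-gene site, where 2.51% and 3.45% of all genes were. The group was chosen with its count in these peaks known, so its share is a description. The 31 genes lay at 28 sites, with a median pooled signal of 45.1. A ribosomal gene had the nearer 5′ end at 14 of the 28. This count includes the sites where both genes are ribosomal, named below, at which it holds by construction. Only 2 of these sites held a GATA sequence, those of rpl-24.1 with rps-10 (58.1) and of rpl-7A with set-21 (41.98).

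After rpl-1 and rpl-20, the ribosomal site of highest signal was that of rpl-12 and lin-54, a DNA-binding subunit of the DRM complex, with 80.8 pooled, 50.5 in replicate 1 and 29.9 in replicate 2. Its summit stood 31 bp upstream of rpl-12 and 362 bp upstream of lin-54. The rpl-15 and K11H12.8 site had 79.1, with 46.8 and 29.95 in replicates 1 and 2. The hsr-9 and rps-19 site had 71.6, with 35.0 and 35.1. Both genes were ribosomal at the rpl-24.1 and rps-10 site, the rps-30 and rpl-39 site (29.1) and the rps-14 and rpl-36 site (28.0). The lpd-7 and rpl-9 site was low in replicate 1 and high in replicate 2 among the members, with 45.2 pooled, 10.9 in replicate 1 and 30.2 in replicate 2.

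The ribosomal genes, like other groups of general function, are arranged unlike most genes. Of them, 59.8% belong to a divergent pair with 5′ ends up to 2000 bp apart, against 25.6% of all genes. The share was also above 25.6% in the other groups of general function, from 35% for vacuolar ATPase to 80.2% for histones. Among genes in such pairs, 29 of 49 ribosomal genes (59.2%) were at a divergent site, where 434 of 5120 of all such genes (8.48%) were. For translation factors it was 10 of 21 (47.6%). For epidermal antimicrobial and osmotic genes it was 3 of 8 (37.5%), which lay at only 2 sites. Vacuolar ATPase subunits had 2 of 7 (28.6%) and chaperones 7 of 34 (20.6%). Splicing and snRNP proteins had 6 of 32 (18.8%) and proteasome subunits 4 of 22 (18.2%). Other groups of general function were below the share of all genes, with cell cycle genes at 3 of 50 (6%), aminoacyl-tRNA synthetases at 1 of 15 (6.67%) and mitochondrial respiration at 1 of 23 (4.35%). Core and linker histone genes are mostly in such pairs, 65 of 81, yet 5 of the 65 (7.69%) were at a divergent site, close to the share of all genes.

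Translation factors were at shared sites in 10 of 40 cases (25%), at 10 sites of which 0 held a GATA sequence. After iff-2, the leading sites were those of rps-1 and ifet-1, a germline protein that binds eIF4E, with 62.8 pooled, 36.8 in replicate 1 and 22.9 in replicate 2. The site of rfc-4, a subunit of the clamp loader of DNA replication, and eef-1A.1, elongation factor 1 alpha, had 60.8, with 41.6 and 20.7. The eef-1G and ctf-4 site had 59.7, with 33.4 and 22.3. The iff-1 and cdk-1 site, which pairs a second eIF5A gene with the mitotic kinase, had 37.6, with 27.6 and 9.94. The site of eef-2, elongation factor 2, and clsp-1 had 42.6, with 21.7 and 23.0.

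**Figure D4:**
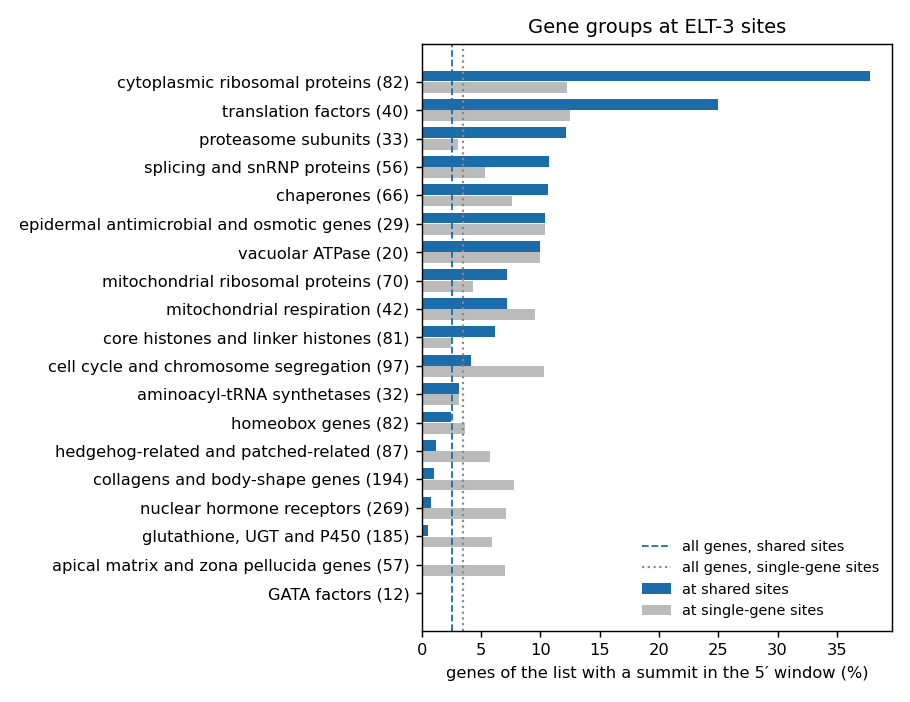
Percentage of the genes of each of 19 groups, with the group size in brackets, that have a summit of a shared site (blue) or of a single-gene site (grey) in the 5′ window. The dashed and dotted lines mark all protein-coding genes, at 2.51% and 3.45%; ribosomal proteins (37.8%) and translation factors (25%) have the highest shares at shared sites.

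Among other groups of general function, proteasome subunits had 4 of 33 genes at shared sites, splicing and snRNP proteins 6 of 56, chaperones 7 of 66, vacuolar ATPase subunits 2 of 20, mitochondrial ribosomal proteins 5 of 70 and histones 5 of 81. The rpn-3 and hsp-110 site joins a proteasome subunit and a chaperone and had 66.6, with 36.7 in replicate 1 and 29.4 in replicate 2. The F57B9.1 and rpn-6.1 site had 52.0, with 35.8 and 15.4, and held a GATA sequence. The rsp-1 and rsp-2 site, at 2 genes of SR splicing proteins, had 51.1, with 23.9 and 23.1. The dnj-13 and F54D5.9 site had 49.6, with 25.9 and 25.5. The C17H12.2 and vha-8 site had 51.2, with 29.3 and 26.1, and held a GATA sequence.

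The 6 groups from proteasome subunits to histones had 6.17% to 12.1% of their genes at shared sites, where 2.51% of all genes were. Mitochondrial respiration had 3 of 42 (7.14%), those of atp-1 (31.5), atp-4 (28.6) and cyc-2.1 (27.2), and the atp-1 site had no summit in the replicate 2 list. Aminoacyl-tRNA synthetases had 1 of 32 (3.12%), ears-2, which shares a site with uncp-18 (40.5). Cell cycle and chromosome segregation had 4 of 97 (4.12%) at shared and 10 at single-gene sites. The leading one was ska-3, a protein of the kinetochore, which shares its site with rps-12 (56.1, with 29.7 in replicate 1 and 23.0 in replicate 2). The other histone sites were those of his-32 and his-31 (37.3, GATA present) and of wapl-1 and htz-1, the histone variant H2A.Z (31.2, no summit in the replicate 2 list).

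Of the groups below the 2.51% of all genes at shared sites, several belong to the cuticle and the epidermis, to nuclear receptors or to detoxification. Collagens and body-shape genes had 2 of 194 (1.03%) at shared and 15 (7.73%) at single-gene sites. Besides dpy-10 it was col-62, with C15A11.7 (29.8 pooled, 23.7 in replicate 1, no summit in the replicate 2 list). Nuclear hormone receptors had 2 of 269, nhr-80 and nhr-232, against 19 at single-gene sites. The nhr-232 site had no summit in the replicate 2 list. Hedgehog-related and patched-related genes had 1 of 87, ptr-10 (28.7), against 5. Glutathione, UGT and P450 genes had 1 of 185, gst-42 (35.4, GATA present), against 11. Apical matrix and zona pellucida genes had 0 of 57, against 4, and GATA factor genes had 0 of 12 at both kinds of site. Of these groups, 8.33% to 24.3% of the genes belong to divergent pairs. Among genes in such pairs, 1 of 44 collagen and body-shape genes (2.27%) and 2 of 44 nuclear hormone receptors (4.55%) were at a divergent site. It was 1 of 45 (2.22%) for glutathione, UGT and P450 genes and 1 of 20 (5%) for hedgehog-related and patched-related genes. Apical matrix genes had 0 of 5 and GATA factor genes 0 of 1, where 8.48% of all such genes were. These shares were not tested.

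Epidermal antimicrobial and osmotic genes, by contrast, had 3 of 29 (10.3%) at shared sites, which were only 2 in number, and 3 at single-gene sites. Besides nlp-31 and nlp-34 this was nlp-33, an antimicrobial peptide gene, whose summit was 23 bp upstream and 315 bp upstream of T19C4.24. It had 28.8 pooled, 21.5 in replicate 1 and 6.23 in replicate 2, and held no GATA sequence. Homeobox genes had 2 of 82 (2.44%), just below the 2.51% of all genes. They were ceh-7, which shares a site with prx-5, the import receptor of peroxisomes (30.8, GATA present), and ceh-100 (27.9, no summit in the replicate 2 list).

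Shared sites were mostly intergenic, at 216 of 245 (88.2%), against 77.8% of single-gene sites, while 11 lay in introns and 4 in coding exons. They were near a gene of a tRNA, snRNA, snoRNA or rRNA, a usual background of ChIP, in 8 of 245 cases (3.27%, exact 95% interval 1.42 to 6.33%), against 40 of 706 single-gene sites (5.67%), with 7.2% over all 2000 regions. The test was not passed (Fisher's exact test, adjusted p = 0.29). All 8 were divergent sites, and 0 of the 24 same-strand sites was so placed, a count that allows up to 14.2% (exact 95% interval; Fisher's exact test, adjusted p = 1.0). The ribosomal gene rps-26, with tmem-107, was at one of the 8.

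The chromosomes held unequal numbers, with 66 shared sites on I, 59 on III, 37 each on II and IV, 36 on V and 10 on X. On X the windows of neighbouring genes seldom overlap: 1.24% of its length lay in 2 or more windows, against 3.32% of all chromosomes together. Per Mb of such sequence, shared sites numbered 117 on I, 114 on III, 63.5 on IV, 59.1 on II, 45.4 on X and 43.8 on V, and 73.5 in all. Single-gene sites per Mb of single windows numbered 48.4 on I, 41.6 on X, 30.2 on III, 29.6 on II, 23.9 on IV and 18.9 on V. In all they numbered 30.5. Scaled by window, X remained below all chromosomes together for shared sites and above them for single-gene sites. Chromosomes I and III stood above the others for shared sites. For single-gene sites I was also the highest, while III was near all chromosomes together. These differences were not tested.

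**Figure D5:**
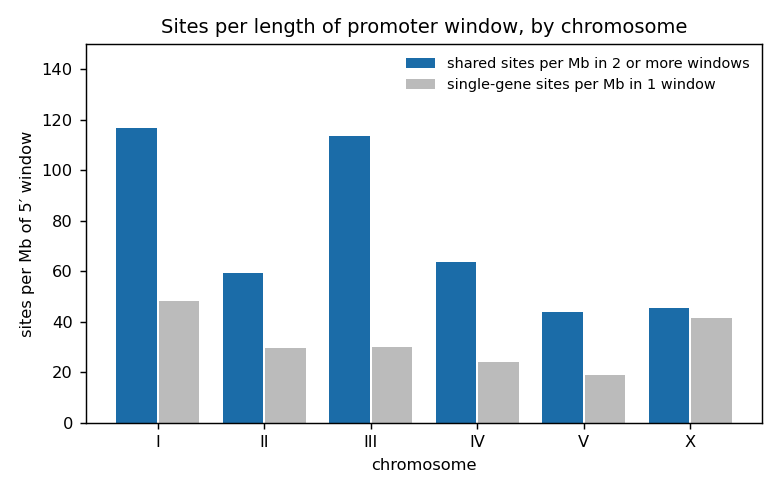
Shared sites per Mb of sequence in 2 or more 5′ windows (blue) and single-gene sites per Mb in 1 window (grey), for each of the 6 nuclear chromosomes. Chromosomes I and III have 117 and 114 shared sites per Mb, and the others 43.8 to 63.5.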

How the data were processed

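ChIP-seq of tagged ELT-3 was available from 2 biological replicates. Per the file listings deposited with each library, the authors called regions at a relaxed threshold against a control, for each replicate (19168 and 26381 regions for replicates 1 and 2) and for both pooled (12702 regions, 12676 of them nuclear). They also derived a list of 637 reproducible peaks. The signal column is a score of the authors' caller with no stated scale. The aligner, the caller and its thresholds were not given in the sources used here, and lists on the older build ce10 were not used. The list files hold no read counts, so depth is unknown.

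Summits were read on ce11 and compared with WBcel235 and Ensembl release 115. Small structural RNA genes were called near within 200 bp, and replicate summits were matched within 100 bp. Sequence was searched in windows of 101 bp. Classes were compared with Fisher's exact test and summits with flanks by the exact McNemar test (Python 3.11.15, scipy 1.17.1), with Benjamini-Hochberg adjustment. Intervals are exact 95% binomial intervals and cover counting error only. Members, gene lists and tests were chosen with earlier results of these data known, and the gene lists were corrected after a first look at their members. Named were the members of highest signal: 10 divergent, 8 same-strand, up to 3 overlapping, the first 5 with GATA per class and the first 3 per gene list. Others were named after their values were seen, among them the ribosomal sites beyond the first 3, those of eef-1G and eef-2, and the rpl-24.1 and rpl-7A sites.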

Additional observations from a re-analysis of the deposited data

How the results depend on the processing

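Of 160 alternative values, 104 kept their direction and their side of the threshold or stayed within 1.5 times the count. The cause of the other changes was not tested. Windows of 500 bp to each side gave 140 shared, 130 divergent and 8 same-strand sites. The first 1000 regions gave 140, 129 and 11. The reproducible peaks, in effect a stricter cut on pooled signal, gave 81, 73 and 8. The GATA difference between shared and single-gene sites was -14.7 and -5.40 points with 1 replicate left out, -6.72 within 25 bp of the summit and -3.80 for the rearranged control, and the last 3 did not pass Fisher's exact test. Between shared summits and flanks it was -1.93 and 1.53 points with 1 replicate left out, and -11.0 for the control, which passed the exact McNemar test. Divergent minus same-strand sites turned to 7.19 points among the first 1000 regions, 3.94 among reproducible peaks, 0.342 for TGATAA alone and 1.71 for the control. The shared minus single-gene difference in nearness to small structural RNA genes turned to 2.31 points among reproducible peaks, and that between divergent and same-strand sites to -2.77 with the 5′ ends of all transcripts. The difference in the summit-only share, -18.1 points, was -20.8 and -5.37 with 1 replicate left out. It missed the threshold of Fisher's exact test at -15.6 with windows of 500 bp, -15.5 within 25 bp, -11.4 for the control and -18.9 within 40 to 50% G and C. More frequent 6-base sequences than at single-gene sites (20) numbered 37 with the 5′ ends of all transcripts, 2 among the first 1000 regions, 6 among reproducible peaks, 2 to 5 with 1 replicate left out, 6 within 25 bp, 11 for summits within 500 bp of a 5′ end, 0 within 40 to 50% G and C and 12 without ribosomal protein genes. Less frequent ones (4) numbered 1 with windows of 500 bp, 7 with no downstream part, 8 with all transcripts, 1 among the first 1000 regions, 0 among reproducible peaks, 0 to 2 with 1 replicate left out, 2 within 25 bp, 0 within 40 to 50% G and C, 7 without X and 2 without ribosomal protein genes. Against flanks, the more frequent (90) numbered 52 with windows of 500 bp, 38 among the first 1000 regions, 13 among reproducible peaks, 34 to 62 with 1 replicate left out and 37 within 25 bp. The less frequent (35) numbered 15, 10, 4, 5 to 23 and 8 under the same settings. At an unadjusted p under 0.05, 155 sequences were more and 89 less frequent than at single-gene sites. The limits on G and C, X and ribosomal protein genes, and the summit-only share, were chosen after seeing the data. No paired analysis was possible because both replicates belong to 1 group. Depth is unknown, so no limit from it can be given.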

Other observations

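The few shared sites on the X chromosome often held a GATA sequence. A GATA sequence was in 6 of 10 of them (60%, exact 95% interval 26.2 to 87.8%), against 40 of those elsewhere (17.02%, 12.4 to 22.4%). At single-gene sites the shares were 27.6% of 152 on X and 31.6% of 554 elsewhere. The 6 sites were those of mocs-1 and nkat-3 (49.5), gst-42 and D1053.2 (35.4), idh-2 and C34F6.7 (32.9), K02E10.4 and K02E10.6 (30.9), atf-4 (28.8) and meg-3 with Y40A1A.2 (28.7). The pattern was noticed in the data and its difference was not tested.

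Divergent sites with 3 or more genes numbered 13, of which 12 had 3 genes and 1 had 4. The site with 4 genes held Y62E10A.23, Y62E10A.20, the Mediator subunit gene mdt-9 and the gene lsm-3, of a protein of the Sm-like family, with a pooled signal of 32.5, and 13.8 and 15.8 in replicates 1 and 2. Another lay at the RNA-binding protein gene mex-1, the endosomal GTPase gene rab-7 and W03C9.5 (40.1, with 22.1 in replicate 1 and 17.2 in replicate 2, GATA present). A further one lay at rab-18, kbp-4 and the polarity gene par-2 (32.3, with 18.9 and 8.78). Only 4 genes were at more than 1 shared site, and 3 genes were at both a shared and a single-gene site.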
